A study of Mus musculus with 6 samples.

Results

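The genes described here are the MHC class I and class I-like genes of cultured mouse dendritic cells, with and without DB2313. They were chosen by gene symbol from the count table, as 10 of its 54532 annotated genes, with results of these libraries already known, among them a strong fall of H2-M2. The difference between DB2313 and control was therefore used in choosing them, and it is given for them as a description without a test. The cells, which the labels call dendritic cells, were grown in 1640 medium with serum and antibiotics and formed 2 groups, 3 control libraries and 3 libraries treated with DB2313, named in the study as an inhibitor of Spi1 (PU.1). Spi1 is an ETS-family transcription factor of macrophages and dendritic cells. The labels gave no dose, time, mouse strain, age or genotype, and did not say whether replicates were separate cultures, so that the p-values below measure only the spread between these libraries, which may be technical. The study itself wrote of macrophages.

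Class I molecules are built from a heavy chain, which carries the peptide groove, and the invariant light chain beta-2 microglobulin, which is encoded by B2m. The classical heavy chains H2-K1 and H2-D1 show peptides of the cell's own proteins to CD8 T cells, and dendritic cells also load them with peptides of proteins taken up from outside. Non-classical heavy chains resemble them but vary little between individuals and have narrower tasks. H2-T23 (Qa-1) carries a signal-sequence peptide to the CD94/NKG2A receptor of NK cells, H2-Q6 and H2-Q7 encode Qa-2 molecules, H2-M3 presents peptides that start with formylated methionine, and H2-M2 is a further heavy chain of the M region. Nlrc5 is the transactivator of class I genes. It has no DNA-binding domain of its own and acts through the RFX, CREB/ATF and NF-Y factors that sit on the X and Y boxes of class I promoters, while interferon acts through a separate element further from the gene start.

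The promoters of 4 genes are shown, which differ in these elements. H2-M2 and H2-M3 were lower with DB2313, whereas H2-K1 and B2m stayed close to control. The choice used these differences, and a link between them and the elements was not tested. The promoters cover the 250 bases before and the 50 bases after the gene start in RefSeq (GRCm38.p6), and 9 of the 10 genes had such an entry. Capitals mark GAANNGAAA (a form of the interferon element), TGACG (the core of the CREB/ATF site in the X2 box) and CCAAT (the core of the Y box), on either strand. H2-K1 lies at chr17:34000298-34000597 on the minus strand, H2-M3 at chr17:37269984-37270283 on the plus strand, H2-M2 at chr17:37483505-37483804 on the minus strand and B2m at chr2:122147437-122147736 on the plus strand.
H2-K1: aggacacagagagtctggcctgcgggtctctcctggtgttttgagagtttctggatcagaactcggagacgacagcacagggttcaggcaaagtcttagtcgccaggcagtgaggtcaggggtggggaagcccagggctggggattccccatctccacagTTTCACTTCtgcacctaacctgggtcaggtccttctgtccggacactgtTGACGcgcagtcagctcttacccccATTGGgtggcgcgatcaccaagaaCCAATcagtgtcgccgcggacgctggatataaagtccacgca
H2-M3: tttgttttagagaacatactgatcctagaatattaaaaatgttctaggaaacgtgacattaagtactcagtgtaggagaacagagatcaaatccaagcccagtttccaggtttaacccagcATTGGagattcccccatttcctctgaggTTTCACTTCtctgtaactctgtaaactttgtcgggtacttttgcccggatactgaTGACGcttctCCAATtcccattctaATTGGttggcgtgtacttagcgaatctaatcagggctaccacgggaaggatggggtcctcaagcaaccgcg
H2-M2: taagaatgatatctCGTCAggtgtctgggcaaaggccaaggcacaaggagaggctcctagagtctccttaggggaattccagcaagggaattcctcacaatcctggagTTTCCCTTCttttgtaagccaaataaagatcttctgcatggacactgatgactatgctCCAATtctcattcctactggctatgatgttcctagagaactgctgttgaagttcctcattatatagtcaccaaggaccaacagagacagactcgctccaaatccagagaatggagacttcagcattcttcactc
B2m: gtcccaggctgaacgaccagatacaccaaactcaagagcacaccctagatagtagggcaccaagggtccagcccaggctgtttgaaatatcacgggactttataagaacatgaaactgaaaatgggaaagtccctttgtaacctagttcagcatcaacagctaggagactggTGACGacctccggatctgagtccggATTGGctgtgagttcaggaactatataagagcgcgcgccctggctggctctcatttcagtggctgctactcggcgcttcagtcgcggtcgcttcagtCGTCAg

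All 9 promoters held CCAAT, which stood in 37.4% of the 32851 mouse promoters of the reference. TGACG was found in 7 of the 9, against 20.8% of all promoters, and was not found in H2-T23 and H2-Q6. GAANNGAAA, a form chosen after the promoters were seen, was also found in 7 of the 9, against 7.52%, from which nothing is read. The other 2, H2-T23 and B2m, held the related element of 2 GAAA blocks 2 bases apart, which stood in 3.44% of all promoters. A match of GGG and CC 5 bases apart, the outer letters of NF-kB sites, was in 8 of the 9 and in 50.8% of all promoters. Several of its matches overlapped each other.

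Exact matches of the X2-like and Y-like letters at a fixed spacing were found in some of the promoters. In H2-K1, H2-D1, H2-Q7, H2-M3 and B2m, TGACG was followed, with starts 24 or 25 bases apart, by ATTGG, which is the Y box core read on the other strand. That pair stood in 43 of the 32851 promoters, or 0.131%, which belonged to 38 genes. It was chosen after these promoters were seen, and several of them are alike in sequence. Nothing is therefore read from its share among these genes. H2-M2 held both words, but its CCAAT began 84 bases before the gene start and its TGACG match began 236 bases before it, on the opposite strand. H2-Q4, H2-Q6 and H2-T23 did not hold the pair either. In place of TGACG, 24 or 25 bases before ATTGG, H2-Q4 held TGACT and H2-Q6 held TGACC. H2-M2 also held TGACT, with no ATTGG in its promoter. The search required exact letters and left out such near matches. GAGGAA, the core of many PU.1 sites, was matched at 2 places in H2-M2 and at 1 place each in H2-M3 and H2-T23. That is 3 of the 9 promoters, next to 28.3% of all promoters, from which nothing is read. No match of these letters was found in the promoters of H2-K1, H2-D1, H2-Q4, H2-Q6, H2-Q7 and B2m. Aligned to H2-K1, the promoters of H2-D1, H2-Q7, H2-Q6 and H2-Q4 had 88.3%, 86.6%, 83.5% and 83.5% identical bases, whereas H2-M3 had 66.3%, H2-T23 61.5%, H2-M2 59.6% and the unlinked B2m 57.8%. Only the 221 to 261 bases aligned without a gap were counted. TGACG began at -41 in H2-K1 and at -101 in H2-D1, so distances from the RefSeq start may not line up between genes. The motif matches are descriptions of letters, and binding was not measured.

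**Figure D1:**
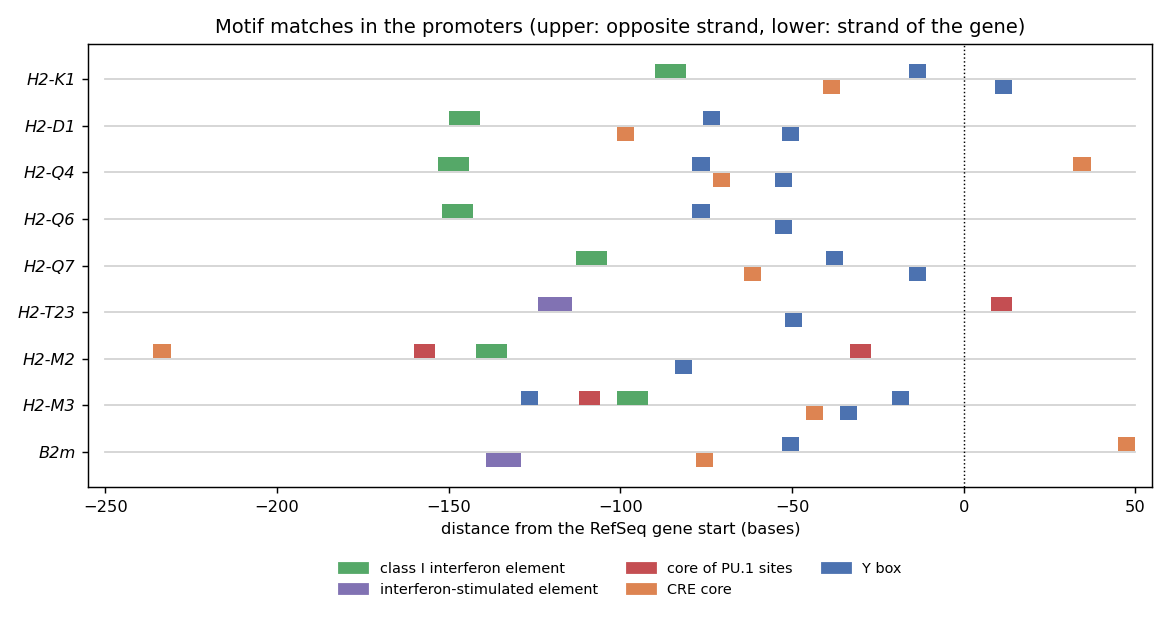
Matches of 5 sequence motifs in 9 promoters, plotted by distance in bases from the RefSeq gene start (dotted line), with matches on the strand of the gene below each line and on the opposite strand above it. In H2-K1, H2-D1, H2-Q7, H2-M3 and B2m an orange CRE core is followed 24 or 25 bases on by a blue Y box on the opposite strand. In H2-Q4, 1 of 2 CRE cores lies between 2 Y boxes and the other lies past the gene start. The red core of PU.1 sites is seen in H2-T23, H2-M2 and H2-M3.

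The libraries held 16146743 to 19764677 counts each, of which these genes took 1.02 to 1.15%. Of 14174 genes that passed the filter on low counts, edgeR called 1503 (10.6%) at an adjusted p under 0.05, 661 higher (4.66%) and 842 lower (5.94%) with DB2313, and these counts fell to 328 and 411 without DB2313 replicate 2 and rose to 1097 and 1311 without DB2313 replicate 3. Leaving out any 1 control library gave 360 to 383 higher and 436 to 485 lower genes. Within a group, the largest distance was that between replicates 1 and 3 of DB2313, and they differed along gene length. In replicate 1 the short genes (up to 2352 bp) lay at a median log2 deviation of 0.12 from the mean of all libraries and the long genes (from 6326 bp) at -0.11, whereas in replicate 3 these medians were -0.06 and 0.06. Of 11 dendritic cell markers 10 were expressed, while Cd209a was at or near 0 in every library (0 to 0.20 CPM), and the summed level of the list was 11569 to 11709 CPM (counts scaled to the size of the library) in control and 9980 to 11495 in DB2313, with Itgax called lower (edgeR) and none higher. The 14 markers of mature dendritic cells summed to 9448 to 10262 CPM and 7454 to 9723 CPM, with Relb and Il12b called lower, and the 6 markers of conventional dendritic cells type 1 to 109.6 to 125.3 CPM and 68.9 to 94.1 CPM, with Batf3 called lower and Clec9a higher. The 12 macrophage markers summed to 10066 to 11445 CPM in control and 8995 to 9881 CPM in DB2313, with 1 called higher and 7 lower (edgeR). The 10 neutrophil markers summed to 4421 to 4973 CPM and 4487 to 5895 CPM, with 3 called higher.

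In control cells the light chain and the classical heavy chains made up most of the class I RNA. On the scale of CPM per kilobase of gene length, which allows levels of different genes to be compared, B2m stood at 3159 ± 60.6 (SD, n = 3, as for all levels here). H2-D1 followed at 1209 ± 34.1 and H2-K1 at 1173 ± 53.3, and these neighbours overlapped between libraries. The next gene, H2-Q6 at 210.7 ± 8.10, lay 5.57-fold below H2-K1.

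The non-classical heavy chains spread over a wide range of levels. H2-T23 stood at 174.7 ± 7.11 CPM per kilobase, H2-Q4 at 116.7 ± 10.3 and H2-Q7 at 62.4 ± 1.85. H2-M2 and H2-M3 had the same level within their spread, at 36.0 ± 1.98 and 35.9 ± 3.01. Nlrc5, a regulator and not a chain of the complex, was lowest at 14.5 ± 0.909. Apart from the pairs H2-D1 with H2-K1 and H2-M2 with H2-M3, no neighbours in this order overlapped. The order depended on the length, since the deposited gene length exceeds that of the longest coding transcript in GENCODE M21 for some genes (4265 against 1523 bp in H2-Q7). Per kilobase of that transcript, H2-K1 (1890 ± 85.9) lay above H2-D1 (1483 ± 41.8) without overlap, H2-T23 (343 ± 13.9) lay above H2-Q6 (210.7 ± 8.10), and H2-Q7 (174.7 ± 5.19) overlapped H2-Q4 (168.9 ± 14.9). B2m stayed first, and H2-M2, H2-M3 and Nlrc5 stayed last. The levels of H2-Q6, H2-Q7 and H2-T23 are uncertain, because 78.0%, 67.8% and 86.4% of their longest coding transcripts matched a transcript of another gene over 100 bp or more with an identity of at least 95%, and the treatment of such reads was not given in the sources used here. For H2-D1 and H2-Q4 the shared part was 20.4% and 16.5%, and H2-K1, H2-M2, H2-M3, B2m and Nlrc5 shared none by this measure. Stretches shorter than 100 bp, or within matches of lower identity, were not counted. Reads shared with other genes are thus not excluded for these genes either.

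**Figure D2:**
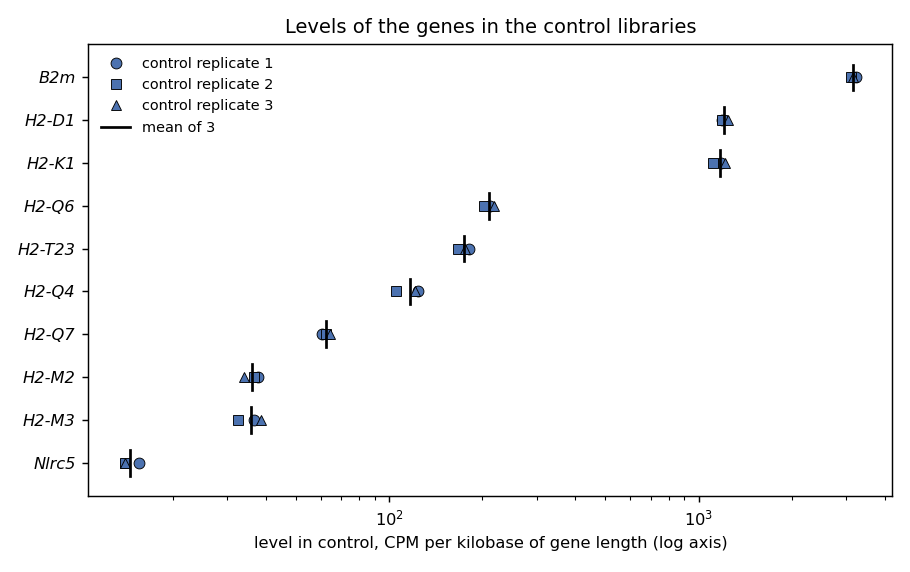
Level of each gene in the 3 control libraries in CPM per kilobase of gene length on a log axis, with a line at the mean. B2m, H2-D1 and H2-K1 have means of 1173 to 3159, the remaining heavy chains of 35.9 to 210.7, and Nlrc5 of 14.5.

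With DB2313, H2-M2 RNA was at 28.6% of its control level and H2-M3 RNA at 62.8%, while the other 8 genes stayed within 0.11 of control on the log2 scale. These differences are those the genes were chosen from. By edgeR, 0 of the 10 genes were called higher and 2 lower, next to 10.6% of all tested genes called in either direction, from which nothing is read here. All 10 passed the filter on low counts, and their median log2 fold change was 0.03. In CPM the groups did not overlap for 3 of the 10, with B2m higher and H2-M2 and H2-M3 lower. Over all tested genes the groups did not overlap for 27.4%, with 12.9% higher and 14.5% lower.

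**Figure D3:**
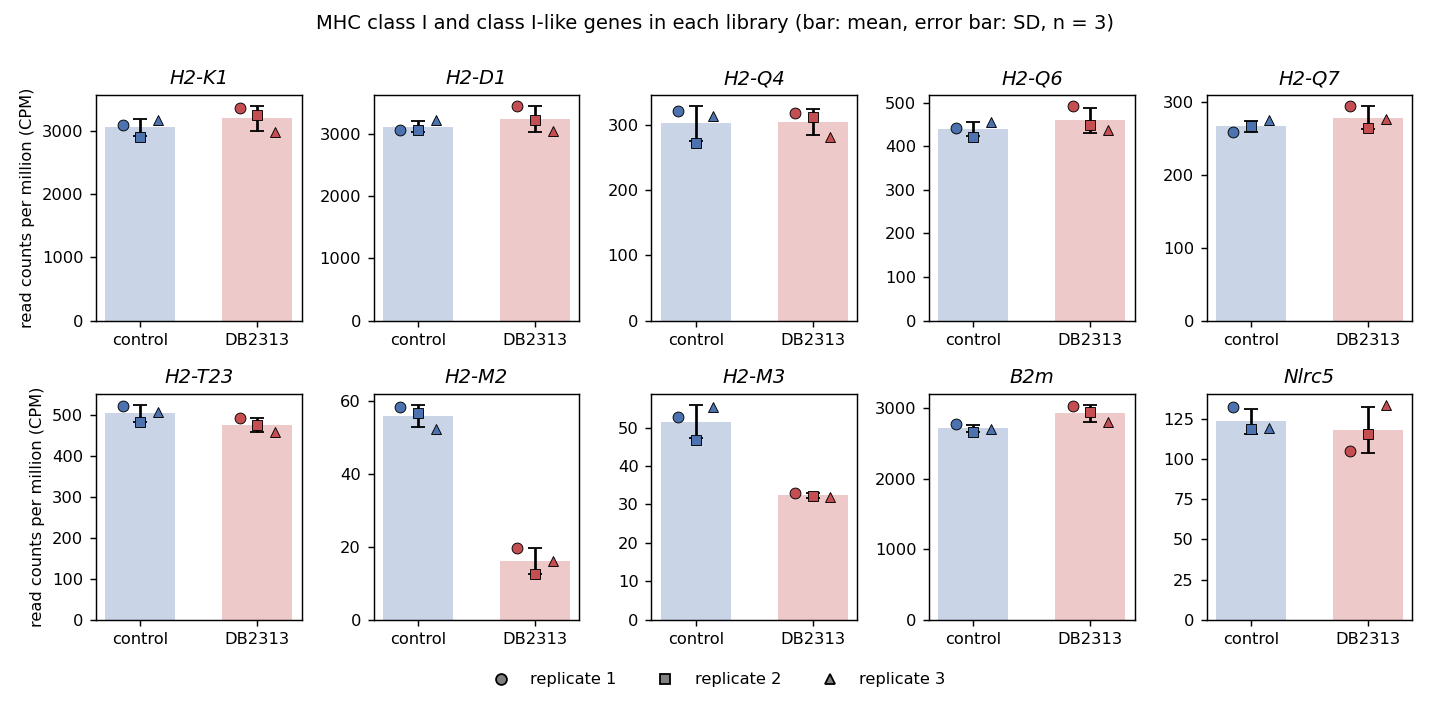
CPM of each gene in every library, with bars for the group mean, error bars for the SD (n = 3) and a symbol for each replicate. H2-M2 and H2-M3 were lower in every DB2313 library, and the remaining panels show bars of nearly equal height.

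The largest differences are described first, those of the heavy chain genes H2-M2 and H2-M3. H2-M2 was at 58.4, 56.8 and 52.4 CPM in the control libraries and at 19.7, 12.4 and 16.1 CPM in the DB2313 libraries, in the order of their replicate numbers, which holds for all values below. The highest DB2313 library was thus far below the lowest control library. The log2 fold change was -1.80 ± 0.13 (SE, 95% interval -2.09 to -1.52), and it stood 31st from the lowest among the 14174 genes tested. It rested on 836 to 949 counts per control library and 248 to 324 counts per DB2313 library. Without DB2313 replicate 1 it was -1.97 and without DB2313 replicate 2 it was -1.64. The libraries are bulk samples, in which fewer cells that express H2-M2 and less H2-M2 RNA per cell cannot be told apart. Markers of other states moved as well, with 7 of 12 macrophage markers, 1 of 11 dendritic cell markers and 2 of 14 mature dendritic cell markers lower and a lower sum of the type 1 markers, as given above, and their part in this difference was not tested.

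H2-M3 had the smaller difference of the pair, and the difference between the genes was not tested. Its level was 52.6, 46.8 and 55.3 CPM in control and 33.1, 32.1 and 32.0 CPM in DB2313. Again every DB2313 library was below every control library, and the 3 treated libraries lay closer to each other than the control libraries did. The log2 fold change was -0.67 ± 0.09 (95% interval -0.86 to -0.48), on 532 to 640 counts per DB2313 library. Since both genes had the same control level per kilobase, the ratio of H2-M2 to H2-M3 was 1.03, 1.13 and 0.88 in control and 0.55, 0.36 and 0.47 in DB2313.

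The classical heavy chains overlapped between groups. H2-K1 was at 3091, 2907 and 3179 CPM in control and at 3373, 3248 and 2985 CPM in DB2313. Its log2 fold change of 0.07 ± 0.07 had a 95% interval of -0.08 to 0.21. H2-D1 was at 3071, 3063 and 3219 CPM in control and at 3453, 3231 and 3043 CPM in DB2313, with a log2 fold change of 0.06 ± 0.07 (95% interval -0.09 to 0.20). For both genes DB2313 replicate 1 was the highest of the 6 libraries and DB2313 replicate 3 was below 2 or more control libraries. The ratio of H2-K1 to H2-D1 per kilobase of gene length was 0.94 to 1.00 in control and 0.97 to 0.99 in DB2313.

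The Q-region and T-region heavy chains also overlapped between groups. H2-T23 was at 523, 483 and 509 CPM in control and 494, 476 and 459 CPM in DB2313, with a log2 fold change of -0.08 ± 0.07 (95% interval -0.22 to 0.06). H2-Q4 was at 322, 272 and 314 CPM against 319, 313 and 281 CPM, H2-Q6 at 442, 421 and 454 CPM against 493, 448 and 437 CPM, and H2-Q7 at 258, 266 and 274 CPM against 294, 264 and 276 CPM. Their log2 fold changes were 0.01 ± 0.08, 0.06 ± 0.07 and 0.06 ± 0.07. H2-Q4 overlaps the antisense gene Gm11131, which had 77 to 155 counts per library, and without stated strandedness reads of the 2 cannot be told apart.

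B2m, which encodes the light chain, was slightly higher in every treated library. It stood at 2773, 2670 and 2707 CPM in control and at 3039, 2949 and 2805 CPM in DB2313. The lowest treated library was above the highest control library, and the log2 fold change was 0.11 ± 0.06 (95% interval -0.02 to 0.24), which edgeR did not call. B2m is the shortest of the genes at 860 bp, and with an offset for gene length in the fit the log2 fold change was 0.02.

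Nlrc5, the transactivator, overlapped between groups at 132, 119 and 119 CPM in control and 105, 115 and 133 CPM in DB2313. Its log2 fold change was -0.07 ± 0.09 (95% interval -0.26 to 0.13), and 0.01 without DB2313 replicate 1. Here the order of the treated libraries was the reverse of that in B2m, with DB2313 replicate 1 lowest and replicate 3 highest. Nlrc5 is the longest of the genes at 8493 bp, and the part of gene length in this order was not tested. The lincRNA 9330175E14Rik on the opposite strand overlaps it and had 108 to 207 counts per library.

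**Figure D4:**
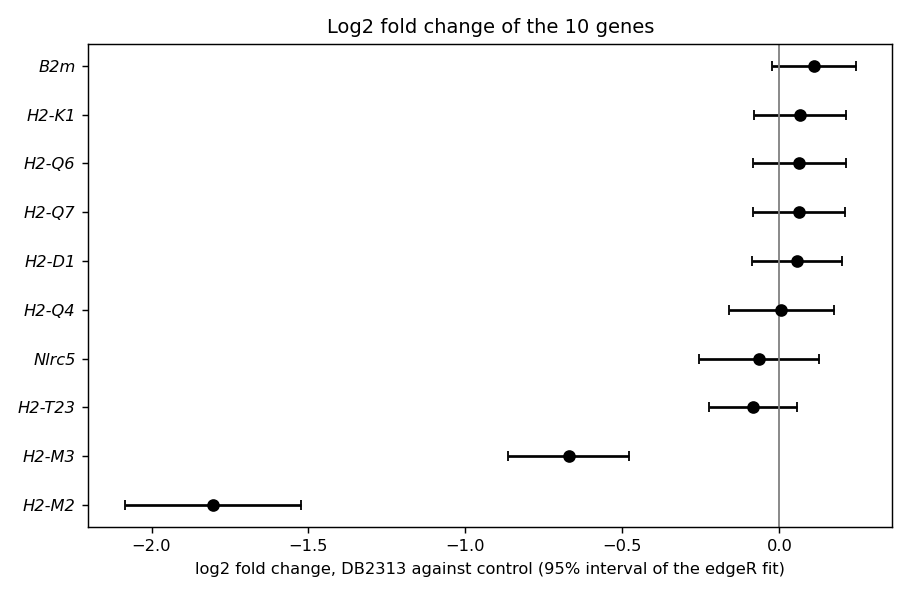
Log2 fold change of DB2313 against control for the 10 genes, with points for the edgeR estimate and bars for its 95% interval. H2-M2 at -1.80 and H2-M3 at -0.67 lie apart from the other 8, whose intervals include 0.

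The shares of class I RNA were computed from these values. Of the summed RNA of these 8 heavy chains per kilobase of gene length, H2-K1 and H2-D1 gave 78.5 to 79.2% in control and 80.2 to 80.8% in DB2313. H2-M2 and H2-M3 together gave 2.45%, 2.38% and 2.32% in control and 1.09%, 0.982% and 1.13% in DB2313. The M-region genes were thus a small part of heavy chain RNA in both groups. The ratio of B2m to the summed heavy chains was 1.01 to 1.07 in control and 1.08 to 1.13 in DB2313 on this scale. Scaled to the longest coding transcript instead, the M-region share was 1.61 to 1.70% in control and 0.681 to 0.780% in DB2313, and the ratio of B2m to the heavy chains was 0.702 to 0.743 and 0.751 to 0.780. Whether B2m RNA exceeded heavy chain RNA thus depended on the length used.

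The genes with the pattern most like that of H2-M2 were looked up. Among 11157 protein-coding genes, likeness was measured as the root mean square difference of log2 CPM relative to the control mean over the 6 libraries. The measure includes the difference between the groups, for which H2-M2 was chosen. Genes with a fall of like size therefore come first. Arg1, the arginase of the urea cycle and of macrophages, was closest at 0.11, with 62.5, 53.3 and 61.3 CPM in control and 21.1, 14.5 and 16.9 CPM in DB2313. Like H2-M2 it was lowest in DB2313 replicate 2. The mitochondrially encoded complex I subunits mt-Nd1 and mt-Nd2 followed, both at 0.17 and also lowest in DB2313 replicate 2. Then came the lysosomal protease gene Lgmn at 0.26, lowest in DB2313 replicate 3, and Spata31d1b at 0.32, lowest in DB2313 replicate 1. Lgmn was at 304, 305 and 321 CPM in control and 118, 103 and 102 CPM in DB2313. These distances describe 6 libraries and were not tested.

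H2-M2 (17:37480851-37483552, minus strand) and H2-M3 (17:37270220-37274484, plus strand) lie in the M region at one end of the MHC, with olfactory receptor genes beside them. The nearest expressed gene to the right of H2-M2 was Olfr111, an olfactory receptor gene 24.5 kb away on the plus strand, named here after its values were seen. It had 23, 20 and 26 counts in control and 2, 0 and 1 counts in DB2313, and edgeR called it lower (adjusted p = 6.8e-04). Olfr99, 4.56 kb from H2-M3, was not called (log2 fold change -0.49 ± 0.48, edgeR adjusted p = 0.60). Gabbr1, a GABA receptor gene 195 kb on the other side of H2-M3, was not called either (0.15 ± 0.13, edgeR adjusted p = 0.558).

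Other class I and class I-like genes were mostly not called. Of 37 listed genes 29 were in the table, 6 of them with 0 counts in every library, and 17 were tested. Their median log2 fold change was -0.06, beside 8.2e-04 over all tested genes, and 1 rose and 1 fell, next to 4.66% and 5.94% of all tested genes. The values ran from -1.42 to 0.82. Mill2 (-1.42 ± 0.49, edgeR adjusted p = 0.0838) and Cd1d2 (-1.17 ± 0.44, edgeR adjusted p = 0.115), named after their values were seen, were lowest. Both lay below H2-M3 (-0.67) but were not called, on at most 34 counts per library. Of the 29 genes, 4 were higher and 3 lower in CPM without overlap of the groups, next to 12.9% and 14.5% of all tested genes. Fcgrt, the neonatal Fc receptor that carries IgG and albumin back to the cell surface, rose from 34.7, 36.3 and 36.7 CPM to 54.4, 48.3 and 51.8 CPM (log2 fold change 0.52 ± 0.09, edgeR adjusted p = 0.00112). Procr, the protein C receptor, fell from 14.4, 14.2 and 16.1 CPM to 11.5, 9.58 and 7.69 CPM (-0.63 ± 0.16, edgeR adjusted p = 0.0159), a call that was lost without any 1 control library or without DB2313 replicate 2. The genes with the highest CPM, unscaled for length, that were not called were H2-T22, a ligand of gamma-delta T cells (0.16 ± 0.07, edgeR adjusted p = 0.142), and Cd1d1, which presents lipids to NKT cells (-0.06 ± 0.10, edgeR adjusted p = 0.773). The list had 2 higher genes without control replicate 1 or DB2313 replicate 1, and 2 lower without DB2313 replicate 3.

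None of the 17 genes of peptide supply and loading was called by edgeR, next to 10.6% of all tested genes. These genes cut proteins into peptides, carry the peptides into the endoplasmic reticulum and help the heavy chain to fold around them. Their log2 fold changes ran from -0.19 to 0.22 with a median of 0.04. Calr, the chaperone calreticulin, was at 0.16 ± 0.06 (edgeR adjusted p = 0.136), and Tapbp (tapasin), which holds the heavy chain at the peptide transporter, was at -0.19 ± 0.07 (edgeR adjusted p = 0.117). Without DB2313 replicate 3, 4 of the 17 were called higher, without DB2313 replicate 1, 1 was called lower, and 1 was called lower with the offset for gene length.

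Of 20 regulators of class I promoters, 3 rose and 2 fell, next to 10.6% of all tested genes called in either direction, with a median log2 fold change of -0.04. Rfxank, a subunit of the RFX complex on the X box, rose from 10.4, 11.1 and 13.1 CPM to 20.3, 20.01 and 18.9 CPM (log2 fold change 0.78 ± 0.13, edgeR adjusted p = 0.00103). It overlaps Nr2c2ap on the opposite strand, which had 14 to 36 counts per library. The NF-Y subunits of the Y box went in opposite directions, with Nfyb at 0.39 ± 0.10 (edgeR adjusted p = 0.0215) and Nfya at -0.30 ± 0.07 (edgeR adjusted p = 0.0115). Irf2 was called lower at -0.24 ± 0.07 (edgeR adjusted p = 0.0494). The call of Nfyb was lost without any 1 control library or without DB2313 replicate 2, that of Nfya without control replicate 1 or 3 or DB2313 replicate 2, and that of Irf2 in 10 of 12 alternatives. The regulators with the highest CPM, unscaled for length, that were not called were Spi1 itself, the target of DB2313 (-0.15 ± 0.07, edgeR adjusted p = 0.206), and Nfkb1 (0.09 ± 0.06, edgeR adjusted p = 0.464).

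Receptors that bind these molecules were also measured. Of 7 listed receptor genes 5 were tested, and only Klrk1 was called by edgeR, next to 10.6% of all tested genes. Klrk1 (NKG2D), the receptor for the stress-induced class I-like ligands, fell from 25.6, 25.03 and 23.1 CPM to 13.2, 13.5 and 12.3 CPM, with no overlap (log2 fold change -0.92 ± 0.11, edgeR adjusted p = 9.5e-05). The 6 NK cell markers summed to 69.5 to 92.6 CPM in control and 68.0 to 89.0 CPM in DB2313, and Ncr1, a defining NK cell receptor, did not pass the filter on low counts. Pirb, an inhibitory receptor of myeloid cells for class I, was at 0.12 ± 0.07 (edgeR adjusted p = 0.352), and Cd8a was at 0.36 ± 0.13 (edgeR adjusted p = 0.0889). Of the 10 T cell markers 1 was called higher and 0 lower. Without DB2313 replicate 3, 1 receptor was called higher.

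Interferon-inducible genes moved in both directions. The class I genes H2-K1, H2-D1 and B2m, which also respond to interferon, were not called, from which nothing is read, as stated above. Of the 20 genes in the interferon-inducible list, 7 rose and 3 fell by edgeR, next to 10.6% of all tested genes, with a median log2 fold change of 0.21. Oasl1 (1.22 ± 0.11), Ifit3 (1.18 ± 0.13) and Ifit1 (1.03 ± 0.13), which encode antiviral proteins, rose most in this list, with edgeR adjusted p-values of 4.7e-06, 4.9e-05 and 1.3e-04. Isg15 (0.70 ± 0.13), Rsad2 (0.68 ± 0.10), Oasl2 (0.55 ± 0.11) and Irf7 (0.42 ± 0.11) rose less, with edgeR adjusted p-values of 0.00212, 5.7e-04, 0.00324 and 0.0218, and Irf7 was not called without control replicate 1 or 2. Irf7 overlaps Phrf1 on the opposite strand, which had 1173 to 1423 counts per library. Without stated strandedness, reads of Irf7 and Phrf1 in the overlap cannot be told apart. Ifi44 fell by 0.89 on the log2 scale (edgeR adjusted p = 0.0290), a call lost without any 1 control library or DB2313 replicate 2. The other two lower genes, named after their values were seen, were the guanylate-binding proteins Gbp5 (-0.39 ± 0.08, edgeR adjusted p = 0.00408) and Gbp2 (-0.32 ± 0.07, edgeR adjusted p = 0.00781, not called without control replicate 2 or DB2313 replicate 2). Among those not called, the highest CPM, unscaled for length, were those of Mx1 (-0.15 ± 0.08, edgeR adjusted p = 0.283) and Irf9 (0.05 ± 0.07, edgeR adjusted p = 0.771). Without control replicate 2 or DB2313 replicate 2 only 1 gene of the list was called lower, and without DB2313 replicate 3 there were 5.

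**Figure D5:**
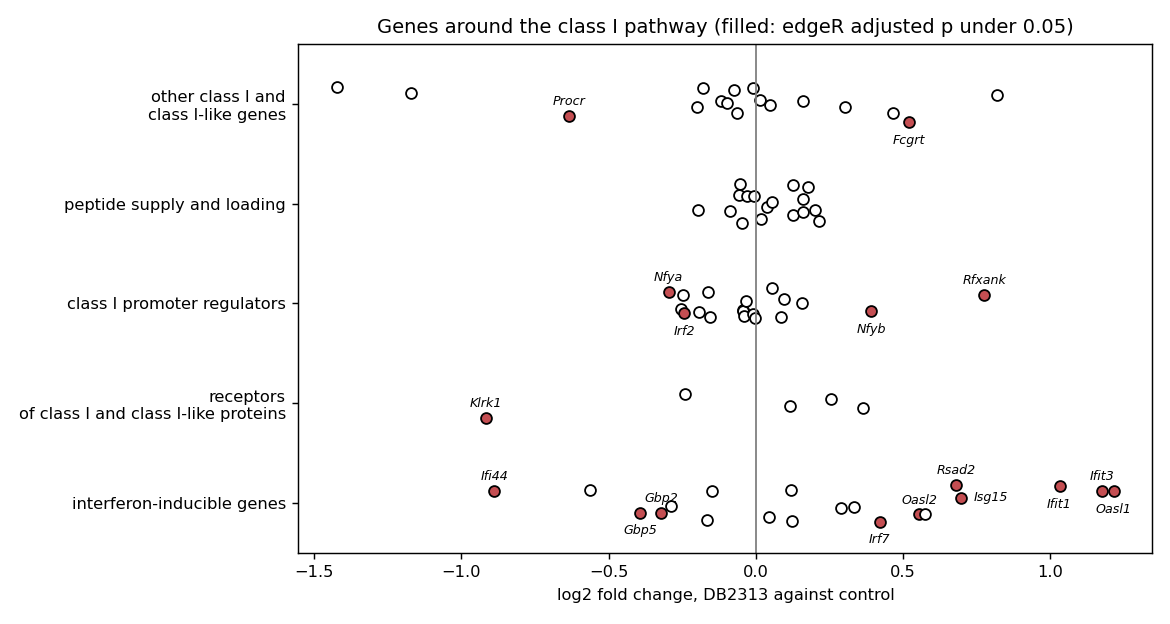
Log2 fold change of DB2313 against control for genes of 5 lists around the class I pathway, with a point per gene (scattered vertically for legibility) and filled points for an edgeR adjusted p under 0.05. The peptide loading genes lie between -0.19 and 0.22 with none filled, whereas the interferon-inducible genes reach from -0.89 to 1.22.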

How the data were processed

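RNA was measured by RNA-seq in 6 libraries. In 1 table, raw counts of reads for each gene were deposited by the authors without normalization, beside a gene length in base pairs. Per the labels, CASAVA 1.8, HISAT2 2.0.5 and featureCounts 1.5.0-p3 were named among the tools, whereas the methods of the study named LifeScope, so the counting of these files is uncertain. Neither the strandedness nor the treatment of multiply matching reads was given in the sources used here. The start and end of 98.3% of the identifiers also found in GENCODE M21 (GRCm38) were the same there.

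Groups came from the treatment in the labels. The columns carried short names, of which one kind was read as bone marrow-derived dendritic cells without treatment and the other, named for Spi1, as the DB2313 libraries of the same numbers. Every direction rests on that reading.

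Counts were tested in R 4.3.3 by edgeR 4.0.16 with its quasi-likelihood method (TMM, filterByExpr, group as the only term, Benjamini-Hochberg over 14174 genes), with a call at an adjusted p under 0.05. Fold changes used a prior count of 0.125, and CPM used TMM-scaled library sizes. Log2 CPM for likeness had a prior count of 2. The script was tested on simulated data. Pairs of replicates differed by a chi-square of 4.77 to 17.7 per degree of freedom, so no library was a copy. Alternatives were DESeq2 size factors, library totals, no filter, DESeq2 1.42.0, an offset for gene length (lowess, span 0.3), the replicate number as a block, and the omission of each library. Scaling levels to the longest coding transcript was added after the data were seen. Transcript copies were searched with blastn 2.17.0. Reads carry no molecular identifiers, so that counts are not independent molecules.

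The members and all gene lists were chosen with earlier results of these data known. The lists were written from general knowledge, and a single gene of the regulators, although counted, is not reported here. The rule named all 10 members, each gene called in a list (the 8 of largest absolute log2 fold change where more were called), the 2 genes with the highest CPM not called, and the 5 genes most like H2-M2. GAANNGAAA and the pair of TGACG and ATTGG were chosen after the promoters were seen. H2-K1 had 2 promoter entries, of which the first was used. Protein sequences were not used here.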

Additional observations from a re-analysis of the deposited data

How the results depend on the processing

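As a description, the log2 fold change of H2-M2 ran from -1.97 to -1.64 over 12 alternatives and that of H2-M3 from -0.73 to -0.62. Leaving out 1 library at a time gave 328 to 1097 higher and 411 to 1311 lower genes over the whole table, 1 to 2 higher and 0 to 2 lower among other class I genes, 0 to 4 higher and 0 to 1 lower among peptide loading genes, 1 to 3 higher and 0 to 4 lower among the regulators, 0 to 1 higher among the receptors, and 1 to 5 lower among interferon-inducible genes. The offset for gene length gave 1 lower peptide loading gene and took the log2 fold change of B2m to 0.02. With DESeq2 size factors, library totals or the replicate block, 1 regulator was lower, and with no filter 1 receptor was higher. Among H2-M2, H2-M3 and the genes called in the lists around the class I pathway, no log2 fold change changed sign. Scaled to the longest coding transcript, an alternative added after the data were seen, control levels were 1890 CPM per kilobase for H2-K1, 1483 for H2-D1, 343 for H2-T23, 168.9 for H2-Q4, 174.7 for H2-Q7 and 16.3 for Nlrc5. Apart from this change of length, the causes of these shifts were not tested.

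The deviations of same-numbered libraries from their group means correlated at 0.0035, -0.024 and -0.12. Those of libraries with different numbers correlated at -0.072 to 0.096. No pairing by number was thus seen, but so few libraries cannot exclude it. The block on this number left 502 higher and 629 lower genes in the whole table. Of the named genes, Irf2 was not called with the block. Depth limits the genes near 0, such as Cd1d2 and Mill2, rather than the members, which had at least 248 counts in each library.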
